A study of Mus musculus with 8 samples.

Results

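The 10 genes Hspa5, Xbp1, Ddit3, Atf4, Trib3, Chac1, Asns, Sesn2, Herpud1 and Dnajb9, which encode effectors of the unfolded protein response and of the integrated stress response, were followed in microglia exposed to lipopolysaccharide (LPS, a component of the outer membrane of Gram-negative bacteria that activates innate immune cells). They were taken by name, with earlier results of these data known. They were found in the table of counts by Ensembl identifier through the symbols of GENCODE vM21, and are 10 of 52636 identifiers in the table. All 10 passed the filter on low counts, which left 13847 genes for the test.

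RNA was sequenced from primary microglia of wild-type (WT) C57BL/6 mice, the resident macrophages of the brain, kept in medium with serum and the growth factor CSF-1. The labels give the strain as C57BL/6, while the methods name C57BL/6N for the wild-type pups. Of the 8 libraries, 4 came from cells given 5 µg/ml LPS and 4 from cells given vehicle, each for 24 h. According to the methods of the study the cells were shaken off mixed glial cultures from newborn mouse brain, so they were removed from tissue before treatment. The labels number the libraries of each group as biological replicates and do not say which animals each came from, so a p-value measures the spread between these libraries.

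The endoplasmic reticulum (ER) folds secreted and membrane proteins, and unfolded protein in its lumen is sensed by IRE1 (gene Ern1), PERK (Eif2ak3) and ATF6, which activate the unfolded protein response and raise chaperones and degradation factors. PERK shares its substrate, the translation factor eIF2α, with kinases that sense lack of amino acids (GCN2, gene Eif2ak4), double-stranded RNA (PKR, Eif2ak2) and lack of heme or mitochondrial stress (HRI, Eif2ak1). Phosphorylated eIF2α slows general translation and favours translation of ATF4, whose targets serve amino acid supply, redox balance and cell death, and this shared branch is the integrated stress response. In macrophages, LPS is known to engage parts of both pathways. ATF4 and CHOP (gene Ddit3) are also controlled at translation, and XBP1 by splicing of its mRNA, neither of which a count per gene can show.

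Promoters of 300 bases (250 before and 50 from the transcription start) were matched for 10 of 10 genes in RefSeq, build GRCm38.p6, and 4 motifs known from these pathways were searched on both strands. The ER stress response element ERSE (CCAAT, 9 bases, CCACG) is bound by NF-Y with ATF6 or XBP1, the related element ERSE-II (ATTGG, 1 base, CCACG) by the same factors, the unfolded protein response element UPRE (TGACGTG) by XBP1 and ATF6, and the C/EBP-ATF response element (TGATGNAA) by dimers that hold ATF4 or CHOP. The 5 promoters with a match are shown because they hold the ER stress elements of Hspa5 and Herpud1 and the ATF4-type element of Herpud1, Asns, Chac1 and Trib3, with the matched bases in capitals and the strand of the gene printed. They lie at chr2:34771840-34772139 (plus strand) for Hspa5, chr8:94386179-94386478 (plus) for Herpud1, chr6:7693160-7693459 (minus) for Asns, chr2:119350992-119351291 (plus) for Chac1 and chr2:152344011-152344310 (minus) for Trib3.
Hspa5: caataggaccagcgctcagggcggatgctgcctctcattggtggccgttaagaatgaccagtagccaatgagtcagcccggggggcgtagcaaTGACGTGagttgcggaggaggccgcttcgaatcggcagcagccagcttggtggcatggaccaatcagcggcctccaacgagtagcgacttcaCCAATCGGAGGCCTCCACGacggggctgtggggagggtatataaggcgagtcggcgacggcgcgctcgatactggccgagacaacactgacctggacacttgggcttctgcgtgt
Herpud1: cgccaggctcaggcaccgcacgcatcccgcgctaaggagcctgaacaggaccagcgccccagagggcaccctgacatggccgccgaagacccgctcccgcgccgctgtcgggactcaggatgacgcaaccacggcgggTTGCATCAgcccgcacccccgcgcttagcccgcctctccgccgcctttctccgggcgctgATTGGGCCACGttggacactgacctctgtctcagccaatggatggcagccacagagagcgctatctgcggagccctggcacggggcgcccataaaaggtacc
Asns: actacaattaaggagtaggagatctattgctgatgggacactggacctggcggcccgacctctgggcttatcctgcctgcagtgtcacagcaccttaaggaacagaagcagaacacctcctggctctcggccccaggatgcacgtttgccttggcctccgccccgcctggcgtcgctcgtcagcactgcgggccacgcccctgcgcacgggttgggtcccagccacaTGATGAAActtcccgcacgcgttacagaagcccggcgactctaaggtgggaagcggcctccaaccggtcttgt
Chac1: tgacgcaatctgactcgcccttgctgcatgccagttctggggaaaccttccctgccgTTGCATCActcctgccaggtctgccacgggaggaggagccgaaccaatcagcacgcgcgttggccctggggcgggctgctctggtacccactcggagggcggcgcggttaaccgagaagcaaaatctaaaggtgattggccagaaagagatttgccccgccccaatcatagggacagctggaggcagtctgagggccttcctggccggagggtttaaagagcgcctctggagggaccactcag
Trib3: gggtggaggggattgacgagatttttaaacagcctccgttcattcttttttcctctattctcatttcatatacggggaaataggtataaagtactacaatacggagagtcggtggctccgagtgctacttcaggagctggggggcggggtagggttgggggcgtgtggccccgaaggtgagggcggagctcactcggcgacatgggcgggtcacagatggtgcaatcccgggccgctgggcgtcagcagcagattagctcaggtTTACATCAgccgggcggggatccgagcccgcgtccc

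Hspa5 held the ERSE from 65 to 47 bases before the start, and a UPRE began 157 bases before it. ERSE occurred in 0.119% of the 32851 promoters searched, and UPRE in 2.01%. Herpud1 held the ERSE-II, found in 0.0365% of promoters, from 52 to 42 bases before the start, and also a C/EBP-ATF element that began 112 bases before it. The C/EBP-ATF element occurred in 3.97% of all promoters, and 4.51% of all genes searched held it in at least 1 promoter. It was in 4 of the 10 genes, namely Herpud1, Asns (23 to 16 bases before the start), Chac1 (193 to 186 bases before it) and Trib3, where it began 14 bases after the start. On the strand printed it read TGATGAAA in Asns, and TTGCATCA in Chac1 and Herpud1 and TTACATCA in Trib3, the element on the other strand. No match of one motif overlapped a match of another in these promoters. In Xbp1, Ddit3, Atf4, Sesn2 and Dnajb9 these letters were not in the window searched.

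**Figure D1:**
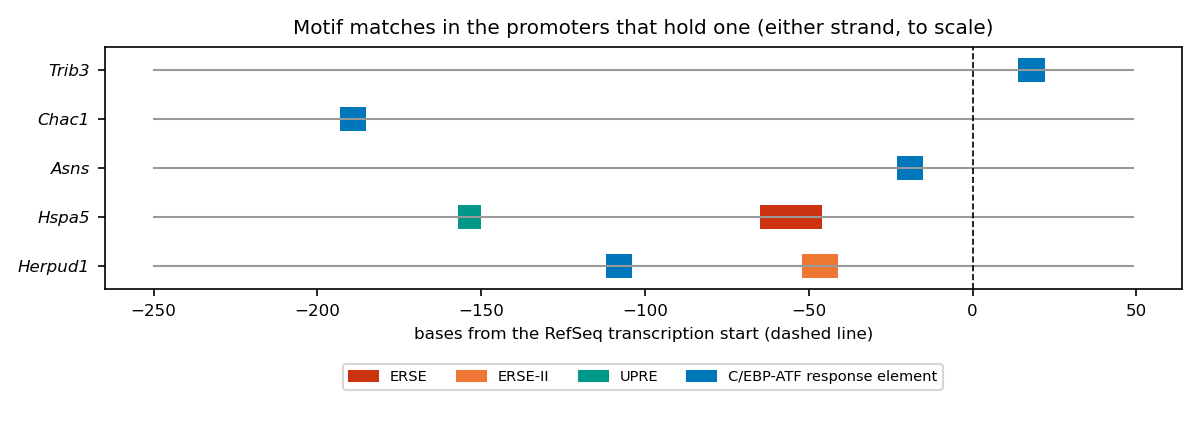
Positions of the motif matches on either strand, in bases from the RefSeq transcription start (dashed line), for the 5 of 10 promoters that held one. The ERSE of Hspa5 and the ERSE-II of Herpud1 lie 47 and 42 bases before the start at their near end, and the C/EBP-ATF elements are spread from 193 bases before to 21 bases after it.

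The libraries held 20071921 to 30604447 counts. Levels are given as CPM, the counts of a gene per 1000000 counts of the library, with library sizes scaled by the trimmed mean of M-values (TMM), which corrects for a few genes taking a large share of the reads. The TMM factors were 1.21 to 1.32 in the vehicle libraries and 0.701 to 0.833 in the LPS libraries, without overlap, so the choice of scaling moves every fold change between the groups. With the total count in place of TMM, chosen as an alternative after seeing the data, the median log2 fold change of all tested genes went from -0.11 to -0.79, a shift of -0.68. Of 10 microglial markers 1 rose and 6 fell, their summed level being 8584 to 10245 CPM with vehicle and 4989 to 5556 CPM with LPS. Markers of astrocytes summed to 20.6 to 47.7 CPM with vehicle and 41.4 to 124 CPM with LPS (Gjb6 at 3 counts or fewer in every library), with 1 that rose and 3 that fell of 8 tested. Gja1 alone went from a mean of 0.873 to 48.6 CPM, and the mean of each other astrocyte marker above 0 was lower with LPS. Those of the oligodendrocyte lineage went from 92.9 to 146 CPM to 17.6 to 23.5 CPM (4 of 6 tested fell), and of endothelial and mural cells from 11.1 to 23.5 CPM to 51.4 to 110 CPM (2 of 4 rose, Cldn5 and Rgs5 at 3 counts or fewer everywhere), where Pecam1 went from a mean of 2.60 to 52.3 CPM. Fibroblast markers summed to 0.0710 to 2.89 CPM and 5.14 to 20.9 CPM (1 tested, which rose), and neuronal markers to 1.21 to 3.62 CPM and 0.703 to 1.26 CPM (2 of 2 tested fell). The part of other cells in the values that follow was not tested, and in bulk RNA fewer cells of a type and less RNA per cell cannot be told apart.

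With TMM scaling all 10 genes rose after 24 h of LPS, and 7 of them (all but Hspa5, Xbp1 and Herpud1) also rose with total counts. The call was made at an adjusted p under 0.05 in edgeR's quasi-likelihood test, with the Benjamini-Hochberg adjustment over all 13847 genes. Of all tested genes 64.1% passed this test in either direction, 30.3% higher and 33.8% lower after LPS. The log2 fold changes ran from 0.74 (Xbp1) to 4.54 (Trib3), with a median of 1.67 against -0.11 over all tested genes. In 9 of the 10 genes every LPS library lay above every vehicle library, which 28.7% of tested genes did. A rise of at least 1 on the log2 scale was called in 7 of the 10 genes and in 16.1% of all tested genes. The 10 genes were chosen with earlier results of these data known, so the comparisons with all tested genes are descriptions. Sorted by role, after the values were known, the 6 genes of the integrated stress response (Atf4, Ddit3, Trib3, Chac1, Asns, Sesn2) had a median of 2.68 and the 4 genes acting in the ER (Hspa5, Xbp1, Herpud1, Dnajb9) a median of 0.90. Because these sub-groups were formed with the values known, the difference is a description.

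**Figure D2:**
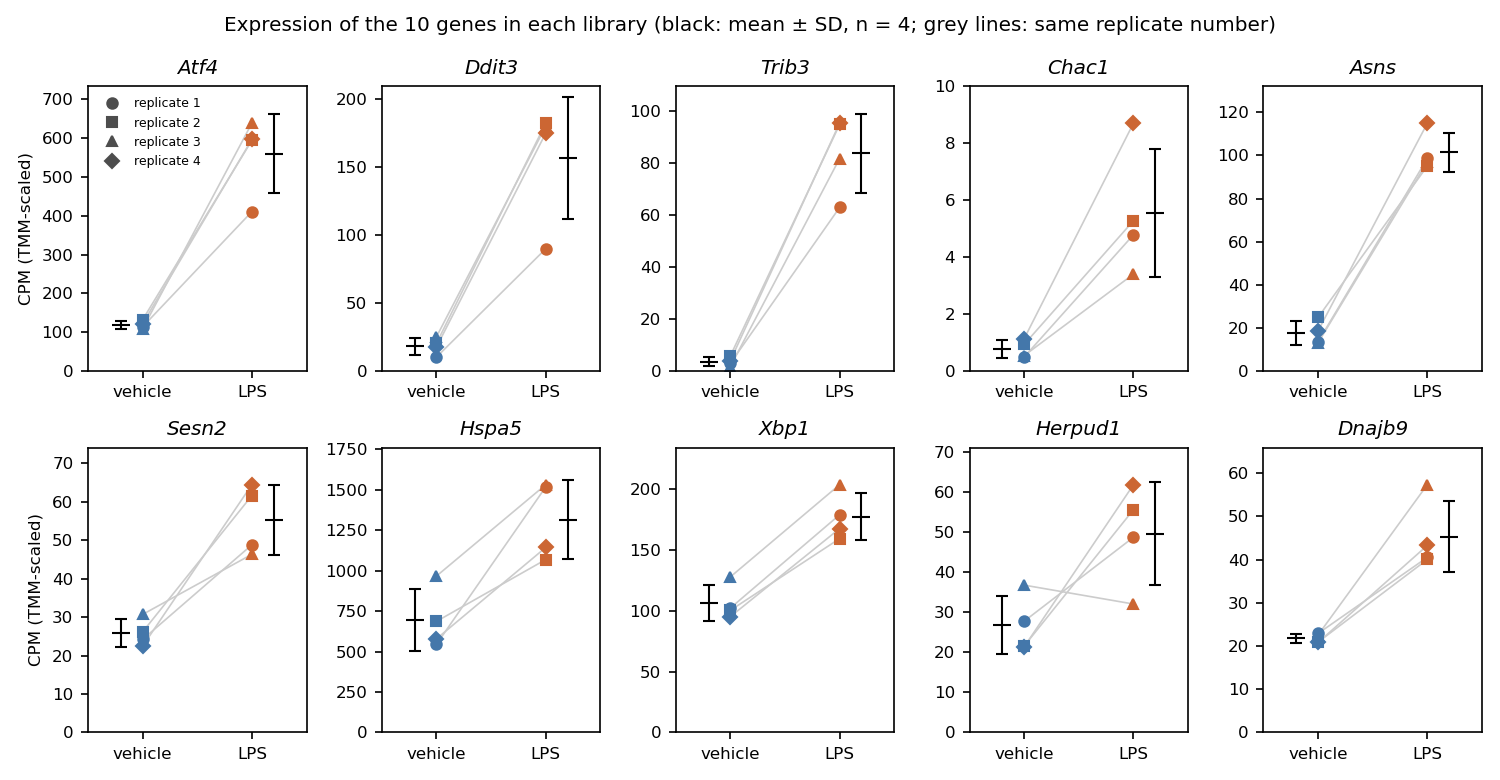
CPM (TMM-scaled, linear axis from 0) of each of the 10 genes in the 4 vehicle (blue) and 4 LPS (orange) libraries, with grey lines between libraries of the same replicate number and the mean ± SD of each group in black. The LPS libraries lie above the vehicle libraries in every panel but that of Herpud1, where LPS replicate 3 lies below vehicle replicate 3.

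Atf4, the transcription factor at the head of the integrated stress response (chr15:80255184-80257541, plus strand, gene span in GRCm38), was at 114, 132, 109 and 122 CPM in vehicle replicates 1 to 4. It was at 411, 595, 639 and 597 CPM in LPS replicates 1 to 4. The lowest LPS library was still above the highest vehicle library, and LPS replicate 1 was the lowest of its group. The means were 119 ± 10.2 and 560 ± 102 CPM (SD, n = 4 each), with a log2 fold change of 2.24 ± 0.16 (SE) and an adjusted p of 2.5e-06 in edgeR.

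Ddit3, which encodes CHOP, a partner of C/EBP factors downstream of ATF4 (chr10:127290774-127296288, plus strand), stood at 10.2, 20.3, 25.1 and 17.6 CPM with vehicle. With LPS it stood at 89.8, 182, 180 and 175 CPM. Replicate 1 was the lowest of both groups, and the groups were far apart. The log2 fold change was 3.10 ± 0.31 (adjusted p = 2.3e-05 in edgeR), and within same-numbered pairs the difference ran from 2.84 to 3.31. Exons of other identifiers overlap 6.13% of the Ddit3 exons on the same strand and 4.73% on the opposite strand (Gm4189 and Mars), so a small share of its reads could belong to these.

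Trib3, a pseudokinase induced by ATF4 and CHOP that restrains both (chr2:152337422-152344032, minus strand), showed the steepest rise of the 10 genes. Vehicle libraries held 2.94, 5.78, 1.68 and 3.94 CPM. LPS libraries held 62.8, 94.6, 81.6 and 95.2 CPM. The mean went from 3.58 ± 1.73 to 83.5 ± 15.2 CPM, 23.3 times higher, and the log2 fold change was 4.54 ± 0.34 (adjusted p = 3.4e-06 in edgeR).

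Chac1, an enzyme that degrades glutathione (chr2:119351229-119354381, plus strand), was the least abundant, with 14, 27, 17 and 32 counts in the vehicle libraries. The LPS libraries held 80, 97, 73 and 161 counts. In CPM these are 0.490, 0.934, 0.539 and 1.14 against 4.79, 5.28, 3.40 and 8.71, so the groups did not overlap and LPS replicate 4 was the highest. The log2 fold change of 2.83 ± 0.38 (adjusted p = 1.4e-04 in edgeR) had the largest standard error of the 10.

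Asns, which makes asparagine from aspartate and glutamine (chr6:7675169-7693254, minus strand), was at 13.5, 24.9, 13.1 and 18.6 CPM with vehicle. The LPS libraries were close together at 98.7, 95.1, 97.1 and 115 CPM. The highest vehicle library was far below all of these, and the log2 fold change was 2.53 ± 0.21 (adjusted p = 5.8e-06 in edgeR). Sesn2, a leucine-binding inhibitor of mTORC1 signalling (chr4:132492032-132510501, minus strand), moved least among the genes of this branch. It went from 24.2, 26.2, 30.7 and 22.4 CPM to 48.8, 61.6, 46.4 and 64.5 CPM. Its groups did not overlap, and the log2 fold change was 1.10 ± 0.14 (adjusted p = 1.2e-04 in edgeR).

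Hspa5 encodes BiP, the HSP70 chaperone of the ER lumen that also holds the stress sensors inactive (chr2:34771970-34777547, plus strand). It was at 545, 687, 967 and 579 CPM in the vehicle libraries. It was at 1518, 1069, 1532 and 1144 CPM in the LPS libraries. The gap between the groups was narrow, vehicle replicate 3 being at 967 and LPS replicate 2 at 1069 CPM. The log2 fold change was 0.92 ± 0.21 (adjusted p = 0.0039 in edgeR), and the paired differences ran from 0.64 to 1.48.

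Xbp1, the transcription factor made active by IRE1 (chr11:5520659-5525893, plus strand), was at 102, 100.3, 128 and 95.1 CPM with vehicle. It was at 179, 159, 204 and 167 CPM with LPS. Replicate 3 was the highest in both groups, which did not overlap, and the paired differences were the tightest of the 10 genes, from 0.67 to 0.82. The log2 fold change of 0.74 ± 0.13 (adjusted p = 6.6e-04 in edgeR) counts spliced and unspliced mRNA together.

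Dnajb9, a J-domain cochaperone of BiP also known as ERdj4 (chr12:44205559-44210326, minus strand), had the tightest vehicle group, at 22.9, 20.9, 22.6 and 20.8 CPM. The LPS libraries were at 40.5, 40.0, 57.3 and 43.3 CPM. Every LPS library was clear of the vehicle group, replicate 3 by the most, and the log2 fold change was 1.06 ± 0.13 (adjusted p = 7.8e-05 in edgeR). Of the 50-base windows along its transcripts 5.50% also occur in Gm6568, and such reads would be lost where uniquely aligned reads are counted.

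Herpud1, a membrane protein of the ER that takes part in degradation of misfolded proteins (chr8:94386438-94395377, plus strand), was the exception in its spread. It was at 27.8, 21.6, 36.8 and 21.4 CPM with vehicle. It was at 48.7, 55.6, 32.0 and 61.8 CPM with LPS. The groups overlapped through replicate 3, the highest vehicle and the lowest LPS library, and the difference within that pair was -0.20 while the other 3 pairs gave 0.81 to 1.53. The log2 fold change was 0.88 ± 0.23 (adjusted p = 0.0078 in edgeR).

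The scaling of the libraries decided the call for 3 of the 4 genes acting in the ER. With the total count in place of TMM, 7 of the 10 genes rose, beside 14.4% of all tested genes (61.1% fell, 75.4% in either direction). Hspa5 then stood at a log2 fold change of 0.25 (adjusted p = 0.252 in edgeR), Xbp1 at 0.06 (adjusted p = 0.599) and Herpud1 at 0.23 (adjusted p = 0.408). Dnajb9 stood at 0.37 (adjusted p = 0.0059) and Sesn2 at 0.43 (adjusted p = 0.031), both still called. The other five genes kept log2 fold changes of 1.55 (Atf4) to 3.86 (Trib3). With upper-quartile scaling or the size factors of DESeq2 all 10 genes were called. The value of every one of the 10 genes was above the median of all tested genes under each of the 4 scalings.

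**Figure D3:**
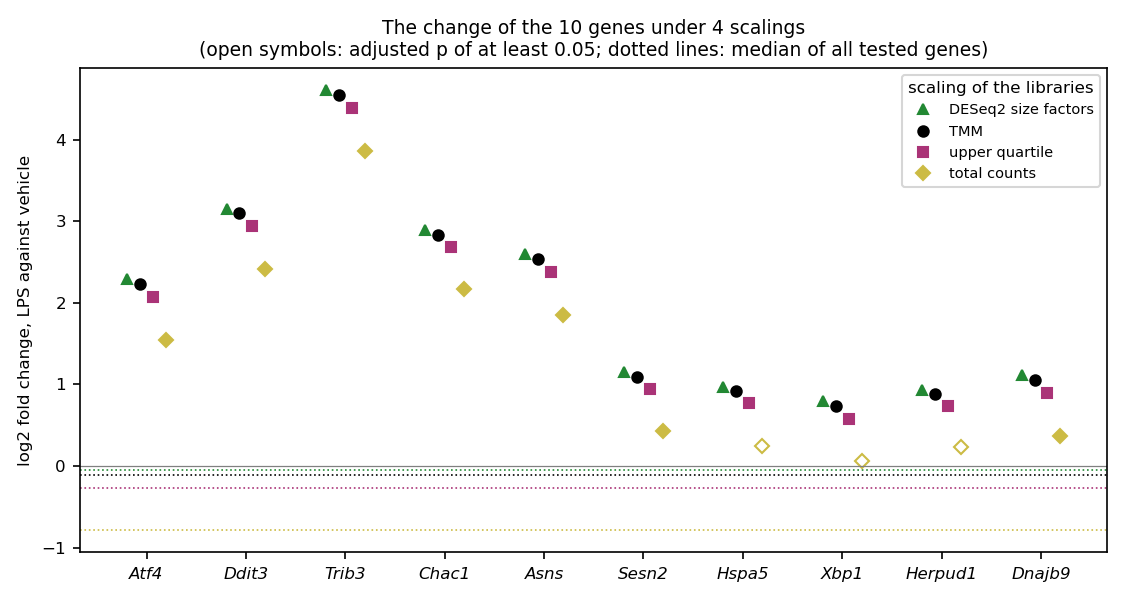
Log2 fold change (LPS against vehicle) of each of the 10 genes under 4 scalings of the libraries, with open symbols for an adjusted p of 0.05 or more and dotted lines for the median of all tested genes under each scaling. The scalings shift all genes by about the same amount, and the open symbols are those of Hspa5 (0.25), Xbp1 (0.06) and Herpud1 (0.23) under total counts.

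Ratios of 2 genes within a library do not depend on the scaling, and they are given as descriptions. The ratios given further below set a gene that rose over a gene that fell, so they restate those changes. The ratio of Ddit3 to Hspa5 counts was 0.0261 ± 0.00535 with vehicle and 0.125 ± 0.0491 with LPS (SD, n = 4 each). Every LPS library, from 0.0592 to 0.170, was above every vehicle library, from 0.0186 to 0.0304. The ratio of Trib3 to Atf4 went from 0.0294 ± 0.0119 to 0.150 ± 0.0150, again without overlap. That of Ddit3 to Atf4 went from 0.155 ± 0.0584 to 0.275 ± 0.0388, where vehicle replicate 3 (0.231) was above LPS replicate 1 (0.219). In the means, Ddit3 and Trib3 mRNA thus gained on Atf4 mRNA, for Ddit3 with overlapping groups, and Ddit3 mRNA gained on Hspa5 mRNA.

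Levels of different genes were compared per length, as FPKM, the CPM of a gene divided by its exon length in kilobases. With vehicle, Hspa5 was highest at 164 ± 45.3 FPKM, followed by Atf4 at 50.5 ± 4.34 FPKM and Xbp1 at 32.7 ± 4.50 FPKM. Herpud1 (11.5 FPKM), Ddit3 (10.7), Dnajb9 (8.55), Sesn2 (7.44) and Asns (6.40) came next, and no neighbours among these 5 differed beyond their spread. Trib3 at 1.69 ± 0.814 FPKM and Chac1 at 0.473 ± 0.191 FPKM were lowest and did not overlap each other. With LPS, Hspa5 (311 ± 57.6 FPKM) and Atf4 (238 ± 43.2 FPKM) overlapped at the top. Ddit3 followed at 91.5 ± 26.1 FPKM, overlapping Xbp1 at 54.6 ± 5.93 FPKM. Trib3 (39.3 FPKM) and Asns (37.1) overlapped, as did the neighbours Herpud1 (21.2), Dnajb9 (17.8) and Sesn2 (15.9), and Chac1 stayed lowest at 3.39 ± 1.38 FPKM. With the longest transcript as the length in place of all exons, Atf4 and Xbp1 overlapped with vehicle, Ddit3 came before Herpud1, and Asns came before Sesn2. Herpud1 and Dnajb9, neighbours by that length only, did not overlap with vehicle by either length. With LPS, Asns (50.3 FPKM) then came before Trib3 (41.2 FPKM) without overlap, and Trib3 overlapped Herpud1. The order of these neighbours thus depends on the length used.

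Genes of the sensors and their signalling partners were called in both directions, with a share of rises near that of all genes. Of 13 such genes, 4 rose (30.8%, beside 30.3% of all tested genes), 6 fell (beside 33.8% of all tested genes) and 3 did not pass the test (median log2 fold change 0.16, against -0.11 for all tested genes). With total counts 2 rose and 9 fell, beside 14.4% and 61.1% of all tested genes. Eif2ak3, the gene of PERK, fell furthest. It was at 31.8, 30.1, 31.3 and 32.1 CPM with vehicle and at 10.6, 10.5, 7.0 and 8.17 CPM with LPS, without overlap. Its log2 fold change was -1.79 ± 0.15 (adjusted p = 6.0e-06 in edgeR). Eif2ak4, the gene of GCN2, fell as well, from 28.2 ± 1.53 to 13.5 ± 3.13 CPM (log2 fold change -1.06 ± 0.16, adjusted p = 3.4e-04 in edgeR).

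The 2 other eIF2α kinase genes went the other way. Eif2ak2, the gene of the interferon-inducible kinase PKR, rose from 168 ± 39.7 to 432 ± 102 CPM (log2 fold change 1.36 ± 0.21, adjusted p = 3.3e-04 in edgeR). Its LPS values were 381, 385, 585 and 376 CPM, replicate 3 being the highest. Eif2ak1, the gene of HRI, rose by 0.41 ± 0.12 on the log2 scale (adjusted p = 0.0137), but with total counts it fell by 0.28 (adjusted p = 0.016), so its direction rests on the scaling. The Eif2ak2 to Eif2ak3 count ratio was 5.39 ± 1.36 with vehicle and 50.6 ± 22.5 with LPS, without overlap.

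Ern1, the gene of IRE1, rose from 54.3 ± 5.23 to 93.0 ± 12.7 CPM (log2 fold change 0.78 ± 0.12, adjusted p = 3.4e-04 in edgeR), a call lost with total counts (0.09, adjusted p = 0.401). Rtcb, the ligase that joins the exons of Xbp1 after IRE1 has cut them, fell from 119 ± 12.2 to 62.7 ± 3.90 CPM (log2 fold change -0.92 ± 0.10). Atf6 was at 190 ± 15.2 and 224 ± 42.3 CPM (log2 fold change 0.23 ± 0.15, adjusted p = 0.181 in edgeR). Its groups overlapped, it passed the test without LPS replicate 1 (0.35, adjusted p = 0.035), and under total counts it fell by 0.46 (adjusted p = 0.0068). Atf6b had a log2 fold change of 0.34 ± 0.26 (adjusted p = 0.269), and of 0.58 (adjusted p = 0.0028) without LPS replicate 3, whose 50.4 CPM was below all vehicle libraries.

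Both proteases that release ATF6 from its membrane fell. Mbtps1 (site-1 protease) went from 98.7 ± 2.82 to 43.2 ± 6.78 CPM (log2 fold change -1.19 ± 0.12, adjusted p = 1.9e-05 in edgeR), and Mbtps2 (site-2 protease) from 58.5 ± 2.10 to 31 ± 1.86 CPM (-0.92 ± 0.08). Exons of Yy2 cover 28.4% of the Mbtps2 exons on the same strand, so part of its reads may not be its own. Creb3, a membrane-bound transcription factor of the ER cut by the same proteases, rose from 36.9 ± 2.99 to 94.6 ± 14.2 CPM (1.36 ± 0.13), with 20.8% of its exons opposite Gba2 and Tln1. Its relative Creb3l2 fell by 0.66 ± 0.21 on the log2 scale (adjusted p = 0.0189), with overlapping groups, and did not pass without LPS replicate 2 (adjusted p = 0.0596) or without LPS replicate 4 (adjusted p = 0.0552). Eif2s1, which encodes eIF2α itself, was at 54.7 ± 5.23 and 61.0 ± 2.35 CPM (log2 fold change 0.16 ± 0.10, adjusted p = 0.17), and under total counts it fell by 0.52 (adjusted p = 0.0013).

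Of 13 feedback regulators and transcription factors of the integrated stress response, 8 rose (61.5%, beside 30.3% of all tested genes), 2 fell (beside 33.8%) and 3 did not pass the test. Their median log2 fold change was 2.03. With total counts 8 rose and 4 fell, beside 14.4% and 61.1% of all tested genes. Both regulatory subunits that direct phosphatase 1 to eIF2α rose. Ppp1r15a (GADD34), the inducible one, was at 15.4, 13.5, 12.2 and 14.1 CPM with vehicle and at 54.9, 82.7, 98.8 and 80.8 CPM with LPS. Its log2 fold change was 2.52 ± 0.18 (adjusted p = 2.2e-06 in edgeR). Ppp1r15b (CReP), known as the constitutive one, went from 142 ± 4.28 to 580 ± 47.9 CPM (2.03 ± 0.11), with 11.4% of its exons opposite Gm26616.

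Nupr1, a small chromatin-associated stress protein, had the largest rise of the list. It was at 17.6, 13, 23.5 and 9.48 CPM with vehicle and at 288, 631, 484 and 596 CPM with LPS. Its log2 fold change was 4.97 ± 0.36 (adjusted p = 2.9e-06 in edgeR), LPS replicate 1 being the lowest LPS library as for Atf4, Ddit3 and Trib3. Stc2, a secreted glycoprotein, rose by 3.94 ± 0.65 on the log2 scale (adjusted p = 5.1e-04) from only 1 to 6 counts per vehicle library to 14 to 71 counts per LPS library. Atf3 rose from 200.2 ± 21.1 to 1019.8 ± 405 CPM (2.35 ± 0.25), LPS replicate 3 being the highest. Cebpb, a dimer partner of CHOP, rose from 29.6 ± 12.8 to 138 ± 47.0 CPM (2.22 ± 0.34), with 20.7% of its exons opposite Tmem189. Atf5, translated like ATF4, rose from 17.7 ± 3.17 to 43.8 ± 10.6 CPM (1.31 ± 0.20). Ddit4 (REDD1), an mTORC1 inhibitor, rose from 1.91 ± 0.290 to 8.63 ± 4.37 CPM (2.17 ± 0.33), LPS replicate 1 at 15.1 CPM being the highest.

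The sestrins, which restrain mTORC1, parted. Sesn1 was at 168, 177, 231 and 184 CPM with vehicle and at 4.31, 7.62, 6.53 and 4.6 CPM with LPS. It fell by 5.04 ± 0.22 on the log2 scale (adjusted p = 1.8e-07 in edgeR), opposite to Sesn2. The count ratio of Sesn2 to Sesn1 was 0.137 ± 0.0115 with vehicle and 10.1 ± 3.16 with LPS. Sesn3 was at 15.1 ± 5.24 and 11.9 ± 8.21 CPM (log2 fold change -0.33 ± 0.42, adjusted p = 0.508), and without LPS replicate 3 it fell by 0.94 (adjusted p = 0.0209), as it did with total counts (-1.08, adjusted p = 0.034).

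Dnajc3, a BiP cochaperone first known as an inhibitor of PKR, fell from 111 ± 9.58 to 74.7 ± 15.5 CPM (-0.57 ± 0.15). Cebpg, the usual partner of ATF4, had a log2 fold change of -0.13 ± 0.13 (adjusted p = 0.408). It fell without LPS replicate 3 (-0.24, adjusted p = 0.0343), with upper-quartile scaling (-0.29, adjusted p = 0.043) and with total counts (-0.82, adjusted p = 8.9e-05). Vldlr, a lipoprotein receptor raised by ATF4 in other cells, was at 4.12 ± 2.42 and 2.42 ± 1.43 CPM (log2 fold change -0.78 ± 0.68, adjusted p = 0.335). It was called lower with the replicate number as a block (-0.80, adjusted p = 0.03), a fit that called 65.3% of all tested genes in either direction.

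**Figure D4:**
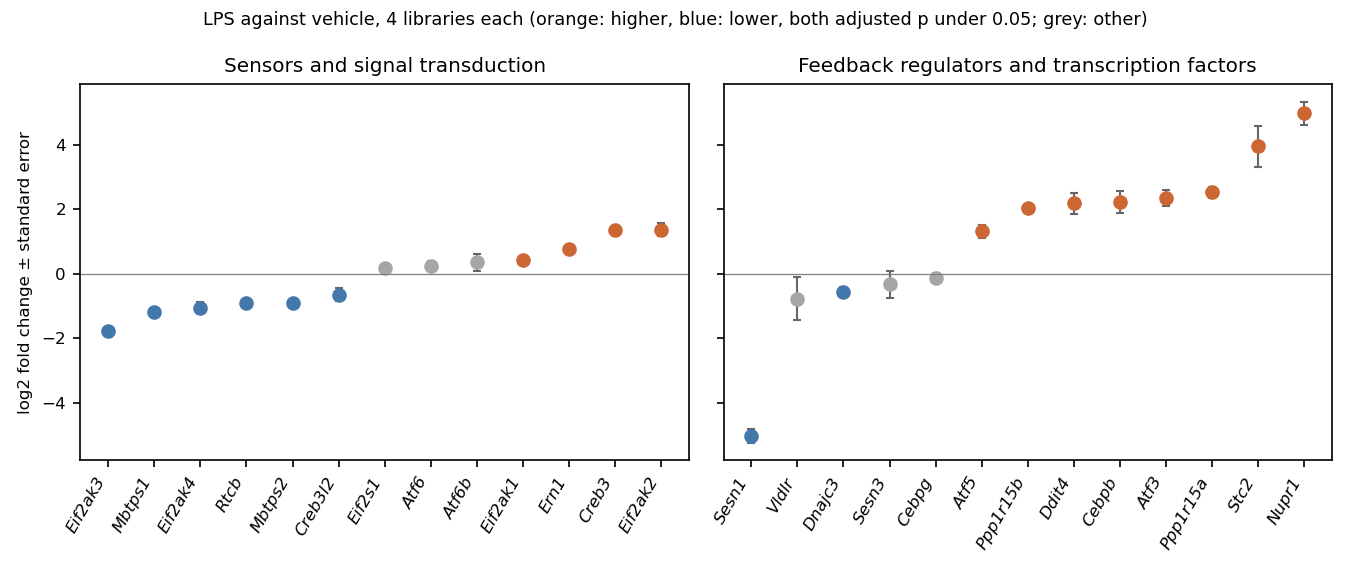
Log2 fold change ± standard error (LPS against vehicle, TMM, 4 libraries each) of the 13 sensor and signalling genes on the left and the 13 feedback regulators and transcription factors on the right, orange for higher, blue for lower and grey for an adjusted p of 0.05 or more. The sensors spread from -1.79 (Eif2ak3) to 1.36 (Eif2ak2 and Creb3), and the feedback genes from -5.04 (Sesn1) to 4.97 (Nupr1).

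Genes known as ATF4 targets in amino acid synthesis and transport were called in both directions. Of 15 genes 13 were tested, of which 5 rose (38.5%, beside 30.3% of all tested genes), 3 fell (beside 33.8%) and 5 did not pass (median 0.19), shares near those of all genes. With total counts 3 rose and 6 fell, beside 14.4% and 61.1% of all tested genes. The cystine-glutamate exchanger gene Slc7a11 was at 60.1, 6.5, 7.99 and 7.10 CPM with vehicle and at 822, 493, 881 and 478 CPM with LPS. Its log2 fold change was 5.03 ± 0.82 (adjusted p = 4.5e-04 in edgeR), and 6.56 without vehicle replicate 1, the high vehicle library. Mthfd2, a mitochondrial enzyme of one-carbon metabolism, rose from 33 ± 4.62 to 149 ± 17.8 CPM (2.17 ± 0.14). Slc7a5, the light chain of a large neutral amino acid transporter, rose by 1.49 ± 0.35 (adjusted p = 0.0045), with overlapping groups and a call lost with total counts (0.83, adjusted p = 0.079). In contrast, the glutamine transporter gene Slc1a5 fell from 20.2 ± 1.53 to 1.65 ± 0.597 CPM (-3.62 ± 0.22), the serine hydroxymethyltransferase gene Shmt2 from 29.0 ± 5.2 to 12.7 ± 4.64 CPM (-1.20 ± 0.28), and the alanine transaminase gene Gpt2 by 0.84 ± 0.15. The Asns to Shmt2 count ratio went from 0.593 ± 0.0782 to 9.36 ± 4.96.

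Cytosolic aminoacyl-tRNA synthetases charge tRNAs, and many are ATF4 targets. Of 20 such genes 10 rose (50.0%, beside 30.3% of all tested genes), 3 fell (beside 33.8%) and 7 did not pass (median 0.31). With total counts 4 rose and 10 fell, beside 14.4% and 61.1% of all tested genes. Aars rose from 120 ± 12.7 to 501 ± 92.1 CPM (log2 fold change 2.06 ± 0.16, adjusted p = 4.5e-06 in edgeR), with 14.3% of its exons shared with Exosc6 on the same strand. Cars rose by 1.73 ± 0.12 and Sars by 1.71 ± 0.10, both without overlap of the groups. Vars fell from 58.2 ± 7.27 to 13.1 ± 5.64 CPM (-2.16 ± 0.33), Farsb by 0.58 ± 0.14 and Iars by 0.53 ± 0.12 on the log2 scale. The C/EBP-ATF element was in the promoters of 5 of the 12 synthetase genes searched, beside 4.51% of all genes searched. Of these 5 synthetase genes, Aars and Gars (log2 fold change 1.05, adjusted p = 2.2e-05 in edgeR) rose and Iars fell. Tars (adjusted p = 0.075) and Yars (adjusted p = 0.452) did not pass.

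ER chaperones and folding enzymes other than Hspa5 and Dnajb9 were called in both directions, with a share of rises near that of all genes in the main fit. Of 22 genes 8 rose (36.4%, beside 30.3% of all tested genes), 5 fell (beside 33.8%) and 9 did not pass (median 0.33). With total counts 3 rose and 10 fell, beside 14.4% and 61.1% of all tested genes. With the replicate number as a block 11 rose and 5 fell, Hsp90b1, Pdia3 and Dnajc10 being the 3 gained. That fit called 65.3% of all tested genes in either direction, 4110 of 13847 higher and 4934 lower. The DESeq2 Wald test also gave 11 rises and 5 falls in the list, beside 4829 rises and 4918 falls among all genes. The share of rises in this list thus depends on the fit. Ero1l, the oxidase that drives disulfide formation, was at 22.5, 19.9, 21.0 and 18.9 CPM with vehicle and at 487, 287, 749 and 232 CPM with LPS (log2 fold change 4.41 ± 0.37, adjusted p = 6.7e-06 in edgeR). Its paralogue Ero1lb fell by 0.77, and the Ero1l to Ero1lb count ratio went from 0.675 ± 0.0439 to 23.4 ± 8.01. P4hb, the protein disulfide isomerase that Ero1l oxidises, rose from 409 ± 40.9 to 1211 ± 257 CPM (1.57 ± 0.17), and Creld2, an ER stress-inducible disulfide isomerase, from 21.0 ± 3.52 to 55.0 ± 12.1 CPM (1.39 ± 0.17). Falls were called for the ER protein gene Cnpy2 (-1.16 ± 0.12), for the glycoprotein glucosyltransferase Uggt1, the folding sensor of the ER (-0.97 ± 0.13), and for Sil1, the nucleotide exchange factor of BiP (-0.78 ± 0.19). ERSE matches were in 5 of the 17 promoters of the list that were searched, those of Calr, Canx, Creld2, Hsp90b1 and Pdia6. Creld2 rose, and so did Calr (0.66, adjusted p = 0.026), whose call was lost with total counts (-0.01, adjusted p = 0.978). Hsp90b1 was at 0.54 (adjusted p = 0.053, and 0.034 with the block), Pdia6 at 0.33 (adjusted p = 0.2) and Canx at 0.14 (adjusted p = 0.373).

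Genes of ER-associated degradation were mostly called higher with TMM scaling, but with total counts their share of rises was near that of all genes. Of 21 genes 20 were tested, of which 14 rose (70.0%, beside 30.3% of all tested genes), 1 fell (beside 33.8%) and 5 did not pass (median 0.46). With total counts 3 rose and 9 fell, beside 14.4% and 61.1% of all tested genes. The largest rises were those of Nploc4, which with Ufd1 and Vcp extracts proteins from the membrane, from 93.2 ± 3.45 to 231 ± 28.5 CPM (log2 fold change 1.31 ± 0.11, adjusted p = 8.5e-06 in edgeR), and of the ubiquitin ligase gene Syvn1 (HRD1), from 53.0 ± 3.96 to 107 ± 13.2 CPM (1.01 ± 0.11). Faf2, an adaptor of Vcp, rose by 0.87 ± 0.09. These 3 genes were called higher with total counts as well, at 0.63, 0.34 and 0.19. Edem3, which trims mannose from misfolded glycoproteins, was the one gene that fell (-0.50 ± 0.14, adjusted p = 0.0102).

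Of 23 genes for entry into the ER and export in COPII vesicles, 10 rose (43.5%, beside 30.3% of all tested genes). Of the rest, 1 fell (beside 33.8%) and 12 did not pass (list median 0.21). With total counts 2 rose and 12 fell, beside 14.4% and 61.1% of all tested genes. Those 2 were Sec23b, a COPII coat subunit (62.3 ± 1.90 to 152 ± 17.6 CPM, log2 fold change 1.28 ± 0.10, adjusted p = 5.6e-06 in edgeR) and Srpr, the receptor of the signal recognition particle (80.3 ± 2.94 to 187 ± 22.8 CPM, 1.22 ± 0.11). Of the 50-base windows of Srpr transcripts 17.8% recur in other identifiers. Sec61a1, the pore of the translocon, rose by 0.72 ± 0.11, a call lost with total counts (0.05, adjusted p = 0.747). Sec62 fell by 0.28 ± 0.09 (adjusted p = 0.0172), and its adjusted p was 0.0505 to 0.087 without vehicle replicate 1, 3 or 4 or without LPS replicate 2 or 4.

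**Figure D5:**
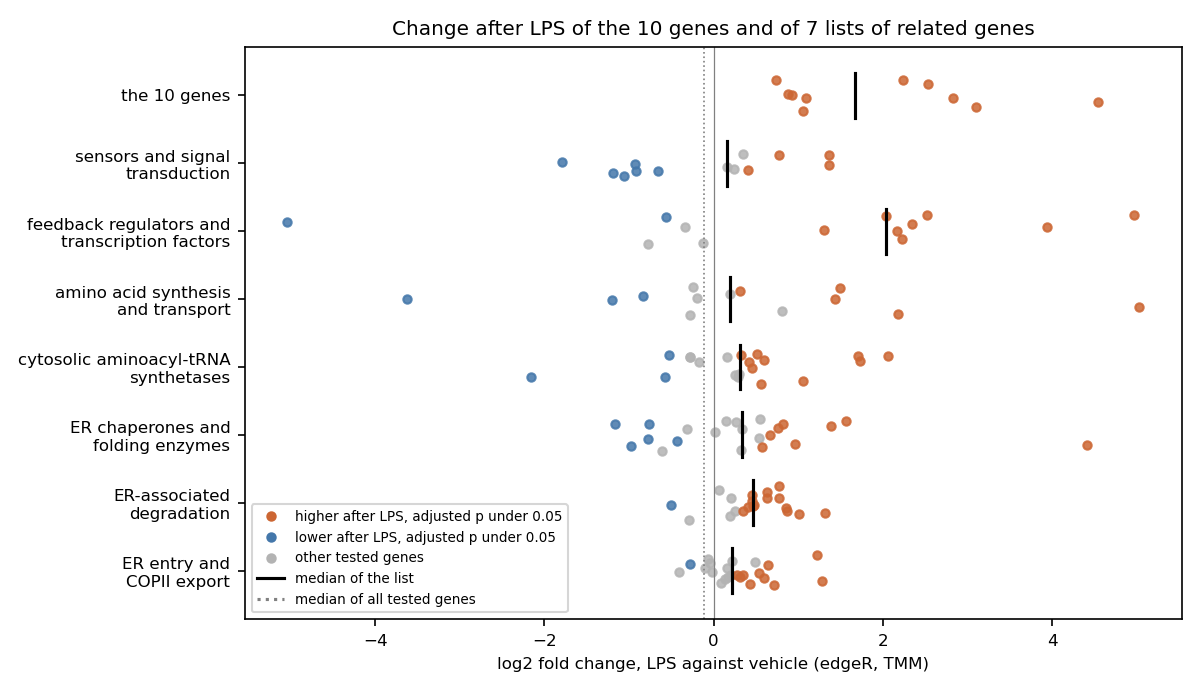
Log2 fold change (LPS against vehicle, TMM) of the 10 genes and of each tested gene of the 7 lists, orange for higher and blue for lower at an adjusted p under 0.05, grey for the rest, with the median of each list as a black bar and that of all tested genes (-0.11) as a dotted line. All 10 genes lie right of 0, the feedback regulators have the highest list median (2.03), and every other list holds both colours around a median of 0.16 to 0.46.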

How the data were processed

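Gene-level RNA-seq was available for 8 libraries, 4 per group. The authors deposited raw counts per Ensembl gene, without normalization. According to the methods, HTSeqGenie filtered the reads, GSNAP aligned them to GRCm38 (both the build and GSNAP also stand in the submitters' processing notes), and uniquely aligned reads were counted. Reads shared with near-identical copies would thus be lost rather than split. The labels name a stranded mRNA kit and a NovaSeq, the methods an unstranded kit and a HiSeq. Use of strand in counting and the annotation release are not given in the sources used here, so overlapping and antisense genes were checked through exon overlap. Symbols and positions came from GENCODE vM21 (52489 of 52636 identifiers matched). Of the table's columns 0 were left unmapped.

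Counts were tested with edgeR 4.0.16 in R 4.3.3 (TMM, filterByExpr at its settings of 10 counts and 15 in total, quasi-likelihood F test, two-sided). Standard errors are the absolute log2 fold change over the square root of F. Alternatives were DESeq2 1.42.0 (Wald test), its size factors, upper-quartile and total-count scaling, 2 filters, stricter thresholds, a replicate block and leaving out each library. CPM and FPKM used TMM-scaled library sizes, and FPKM the union of exons. The scripts were tested on simulated data with few changed genes in both directions, which does not bear on the choice of scaling. The scripts were run in Python 3.11.15 with pandas 2.3.3 and matplotlib 3.10.9. Deviations of same-numbered libraries from their group means correlated over 8010 genes (r = 0.373, 0.196, 0.171 and 0.108 for numbers 1 to 4, other combinations -0.210 to 0.146). The value for number 4 was below the highest of the other combinations, so pairing is not borne out for every number. The numbers were used for paired differences and for the block, while the main fit was unpaired. Count depth alone sets counting error, whereas the SD over libraries holds all other spread too.

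The 10 genes and the 7 lists were chosen with earlier results of these data known. Named were the 10 genes, every gene of the sensor and feedback lists, and of each other list the 3 largest called rises and falls. Other named genes (Ero1lb, Calr, Canx, Hsp90b1, Pdia6, Gars, Tars, Yars) follow from a ratio or a motif, and Pdia3 and Dnajc10 from a call gained with the block, all chosen after their values were seen. A planned list of proteins with an ER retention tail needs a protein table and was not analysed here.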

Additional observations from a re-analysis of the deposited data

Results flagged for a closer look

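In 124 groups of 4 libraries (62 genes in each condition), the highest or lowest library was compared with the others by Dixon's gap ratio. Chance passes it in about 1 of 20 groups, and in 11 of the 124 groups a library stood apart. Among the 10 genes this was Ddit3 alone, at 89.8 CPM in LPS replicate 1 against 175 to 182 CPM in the other LPS libraries. LPS replicate 3 stood apart in 6 genes. Eif2ak2 was at 585 CPM there (376 to 385 CPM in the others), Creb3l2 at 23.6 CPM (12.9 to 14.6 CPM), Sesn3 at 24.2 CPM (7.18 to 9.14 CPM), Sec23b at 178 CPM (141 to 146 CPM) and Srpr at 221 CPM (172 to 178 CPM), all high, while Iars was low at 41.4 CPM (56.0 to 57.9 CPM). That library also had the lowest TMM factor (0.701) and the highest total (30604447 counts). Ddit4 was high in LPS replicate 1, at 15.1 CPM (5.73 to 6.97 CPM). In the vehicle group, Slc7a11 was at 60.1 CPM in replicate 1 (6.5 to 7.99 CPM), Aars at 139 CPM in replicate 2 (112 to 115 CPM) and Creld2 at 26.2 CPM in replicate 3 (18.9 to 19.9 CPM). Without LPS replicate 1 or without LPS replicate 3 all 10 genes were still called higher.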

How the results depend on the processing

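All 10 genes rose in each alternative run except with total counts and with a minimum log2 fold change of 1, which gave 7 each. With total counts 51 of the 62 named genes kept their call and direction, and Atf6 (-0.46), Eif2ak1 (-0.28) and Eif2s1 (-0.52) turned. Of all tested genes 1988 then rose and 8457 fell, so 19.0% of the called genes were higher instead of 47.2%, the libraries' scale being the only thing changed. With upper-quartile scaling 3589 rose and 5481 fell. A minimum log2 fold change of 1 left 5222 of 8877 called genes, and 5 of 10 sensors, 5 of 13 tRNA synthetases, 4 of 13 ER chaperones, 2 of 15 degradation genes and 2 of 11 genes of ER entry and export. The last list also had 7 calls without a filter on low counts and 6 at an adjusted p under 0.01, for which the cause was not tested. Leaving out 1 library at a time gave 8031 to 9314 called genes in all, 10 to 10 of the 10 genes, 9 to 11 sensors, 10 to 12 feedback genes, 7 to 9 amino acid genes, 13 to 16 synthetases, 11 to 17 chaperones, 13 to 17 degradation genes and 9 to 14 genes of ER entry and export. With the replicate number as a block 9044 genes were called, 10 of the 10 genes among them, and among the 62 genes named by rule the block changed no call but that of Vldlr (adjusted p = 0.03), and of the genes named for a motif that of Hsp90b1 (adjusted p = 0.034). Counts were low for Chac1 (14 to 32 per vehicle library), Stc2 (1 to 6) and Vldlr (8 counts in LPS replicate 3).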

Other observations

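Across the genome, the genes that share a motif with the 10 genes were counted as a description. Of 14 tested genes with an ERSE in the promoter 5 rose and 4 fell (median log2 fold change 0.24). Those that rose were Alg12, a mannosyltransferase of the ER (1.61), Creld2 (1.39), Syvn1 (1.01), Hspa5 (0.92) and Calr (0.66). Those that fell were Adcy3 (-4.26), Hnrnpa3 (-1.09), Spats2l (-0.95) and the BiP cochaperone gene Dnajc3 (-0.57). Of 9 tested genes with an ERSE-II 4 rose and 2 fell (median 0.28). Those that rose were Rcl1 (2.50), the BiP cochaperone gene Dnajb11 (0.82), Krtcap2, a part of the oligosaccharyltransferase (0.80), and Herpud1 (0.88). The falls were those of Lgalsl (-1.56) and Gm46430 (-0.74). UPRE was in the promoters of 331 tested genes, of which 123 rose and 98 fell, and the C/EBP-ATF element in those of 278, of which 101 rose and 89 fell. Among the 9829 tested genes whose promoter was searched 3042 rose and 3453 fell (median -0.12), and with total counts 1422 rose and 6197 fell. With total counts the genes with an ERSE had 3 rises and 7 falls, those with an ERSE-II 1 rise and 5 falls, those with a UPRE 48 rises and 201 falls, and those with a C/EBP-ATF element 60 rises and 156 falls. Of the genes named here that rose, Alg12, Creld2, Syvn1 and Rcl1 were still called higher with total counts. Hspa5, Calr, Dnajb11 (0.14, adjusted p = 0.292 in edgeR), Krtcap2 and Herpud1 were then not called. The genes named here that fell were called lower with total counts too. The genes of this paragraph were named after their values were seen.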
